A study of Mus musculus with 9 samples.

Results

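Rgs7, Sulf1 and C330021F23Rik are 3 of the 57010 genes counted by RNA sequencing in the cerebral cortex of E12.5 mouse embryos. They were matched by symbol to their Ensembl identifiers, ENSMUSG00000026527.14 (Rgs7), ENSMUSG00000016918.16 (Sulf1) and ENSMUSG00000065952.14 (C330021F23Rik). The 3 genes were chosen on these same embryos for a large increase in both mutants, so their difference from control is given here as a description, without a test. Cortical tissue was microdissected from single embryos of 3 genotypes, with 3 embryos each. Control (Ctrl) embryos are labelled WT. Cnot3 cKO embryos are a conditional knockout of floxed Cnot3, a subunit of the CCR4-NOT complex that shortens the poly(A) tails of mRNAs, and Cnot3;Trp53 dcKO embryos also lose floxed Trp53, which encodes p53. According to the study's methods, recombination was driven by Emx1-Cre, which acts in radial glia of the dorsal telencephalon and in the cells they produce. Blood vessels, microglia and meninges in the same tissue keep both genes, so each library mixes recombined and unrecombined cells.

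Rgs7 encodes a regulator of G protein signalling of the R7 family. These proteins speed up GTP hydrolysis by Gi and Go alpha subunits and so shorten signalling by the receptors coupled to them. In neurons they are stable only when bound to the beta subunit Gnb5, and they are brought to membranes by Rgs7bp or by the orphan receptor Gpr158. Sulf1 encodes an extracellular sulfatase that removes 6-O-sulfate groups from finished heparan sulfate chains. Heparan sulfate proteoglycans on the cell surface and in the matrix bind Wnt, FGF, BMP and Hedgehog ligands, and the pattern of sulfation sets which ligands are held. C330021F23Rik is named Rps23rg1 in RefSeq. It is a protein-coding mouse gene that arose when the mRNA of the ribosomal protein gene Rps23 was copied back into the genome, and its coding sequence is read from the strand opposite to the Rps23 copy.

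That origin is visible in the sequence. In the GENCODE M21 annotation of GRCm38, the C330021F23Rik transcript of 1621 bases matches the reverse complement of the Rps23 mRNA over 418 bases with 2 mismatches, an identity of 99.5%. All 418 bases lie within the coding sequence of 426 bases, stop codon included. The longest exact match was 258 bases in this opposite orientation, against 11 bases when the transcripts were compared in the same orientation. The following 120 bases of the coding sequence, positions 57 to 176 counted from the A of the start codon, are shown because they hold the first mismatch, in capitals. The substitutions are C87G and G346A, with the base of the Rps23 reverse complement first, the position in the C330021F23Rik coding sequence next and the base of C330021F23Rik last.
C330021F23Rik: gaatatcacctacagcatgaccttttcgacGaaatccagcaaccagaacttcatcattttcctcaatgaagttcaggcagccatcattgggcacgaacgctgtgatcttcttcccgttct
Rps23 reverse complement: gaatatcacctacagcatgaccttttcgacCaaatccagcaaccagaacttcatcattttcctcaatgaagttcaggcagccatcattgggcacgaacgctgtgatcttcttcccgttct

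Reads from this stretch can be told apart from Rps23 reads only by strand or by these mismatches. The libraries were stranded, but the strand setting of the counting and its treatment of reads that map to several places are not given in the sources used here, so the counts of C330021F23Rik carry that uncertainty. The paralogs of the other two genes share much shorter runs. The longest exact run between coding sequences was 22 bases for Rgs7 and Rgs6, 12 bases for Rgs7 and Rgs9, 10 bases for Rgs7 and Rgs11, and 20 bases for Sulf1 and Sulf2.

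The promoters of Rgs7 and C330021F23Rik are shown because these 2 genes followed each other across embryos, as described further on. Each line gives the 250 bases before the RefSeq transcription start on GRCm38.p6, 5′ to 3′ on the gene's strand, with the CG dinucleotides in capitals. The promoter table held 2 of the 3 genes, and Sulf1 was not among them.
Rgs7, chr1:175492546-175492795, minus strand: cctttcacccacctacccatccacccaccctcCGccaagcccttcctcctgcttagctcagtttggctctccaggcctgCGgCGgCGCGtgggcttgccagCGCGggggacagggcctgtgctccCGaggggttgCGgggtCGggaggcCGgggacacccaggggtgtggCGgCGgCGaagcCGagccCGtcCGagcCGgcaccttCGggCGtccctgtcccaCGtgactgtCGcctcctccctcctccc
C330021F23Rik, chr8:3567748-3567997, plus strand: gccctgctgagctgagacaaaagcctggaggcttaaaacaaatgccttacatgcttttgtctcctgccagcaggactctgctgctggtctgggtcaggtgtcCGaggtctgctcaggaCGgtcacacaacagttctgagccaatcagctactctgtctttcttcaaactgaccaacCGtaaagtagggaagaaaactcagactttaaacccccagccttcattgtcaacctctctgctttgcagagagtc

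The promoters differ in composition. Rgs7 had 22 CG dinucleotides, more than 85.2% of the 32851 promoters in the table, and C330021F23Rik had 3, more than 29.0% of them. On either strand, CACGTG occurred once in the Rgs7 promoter and is found in 6.0% of all promoters, while CCAAT occurred once in the C330021F23Rik promoter and is found in 33.8%. TATAAA, present in 12.4% of promoters, was in neither. These matches describe letters in a window and not bound sites.

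Rgs7 was near the floor of detection in control cortex and was counted in every mutant embryo well above it. Counts below are reads scaled to the effective library size of each embryo (normalized read counts), and they are listed in the order of replicates 1, 2 and 3. Rgs7 had 13.7, 19.5 and 39.5 normalized read counts in Ctrl, 216, 305 and 216 in cKO, and 360, 70.3 and 265 in dcKO. The lowest mutant embryo, dcKO replicate 2, was still above the highest control. The means were 24.2 ± 13.5 in Ctrl, 246 ± 51.3 in cKO and 232 ± 148 in dcKO (SD, n = 3 each). The 3 control values rest on 12, 14 and 39 reads, and counting error is therefore large there. Relative to Ctrl, the log2 fold change was 3.32 with a standard error (SE) of 0.62 in cKO and 3.24 with an SE of 0.62 in dcKO, which ranked 4 and 3 among the 13680 genes tested, those that exceeded 10 reads in each of the 9 libraries.

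Sulf1 was expressed at a low level in control cortex and at very unequal levels among mutant embryos. Its normalized read counts were 97.3, 136 and 140 in Ctrl, 382, 748 and 2018 in cKO, and 2262, 737 and 403 in dcKO. All 6 mutant embryos were above all controls, but within each mutant genotype the embryos spanned several fold. The means were 124 ± 23.6 in Ctrl, 1049 ± 859 in cKO and 1134 ± 991 in dcKO (SD, n = 3 each). The log2 fold change from Ctrl was 3.08 (SE 0.73) in cKO and 3.19 (SE 0.73) in dcKO, ranking 7 and 5 of 13680. A single embryo carried much of each mean, and without cKO replicate 3 the cKO value was 2.18, while without dcKO replicate 1 the dcKO value was 2.20. The SD of log2 counts among the 3 cKO embryos was 1.19 for Sulf1, which ranked 5 of 13680 genes, beside a median of 0.157.

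C330021F23Rik was the most even of the 3 genes within cKO. It had 13.7, 26.4 and 20.2 normalized read counts in Ctrl, 131, 142 and 150 in cKO, and 348, 61.7 and 257 in dcKO. The cKO embryos sat close together, the dcKO embryos lay on both sides of them, and none of the 6 overlapped the controls. The means were 20.1 ± 6.36 in Ctrl, 141 ± 9.62 in cKO and 222 ± 146 in dcKO (SD, n = 3 each). The log2 fold change from Ctrl was 2.81 (SE 0.59) in cKO and 3.46 (SE 0.60) in dcKO, ranking 13 and 2 of 13680. The SD of log2 counts among cKO embryos was 0.090, below the median gene, and among dcKO embryos it was 1.200, beside a median of 0.516 over all tested genes in dcKO.

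**Figure D1:**
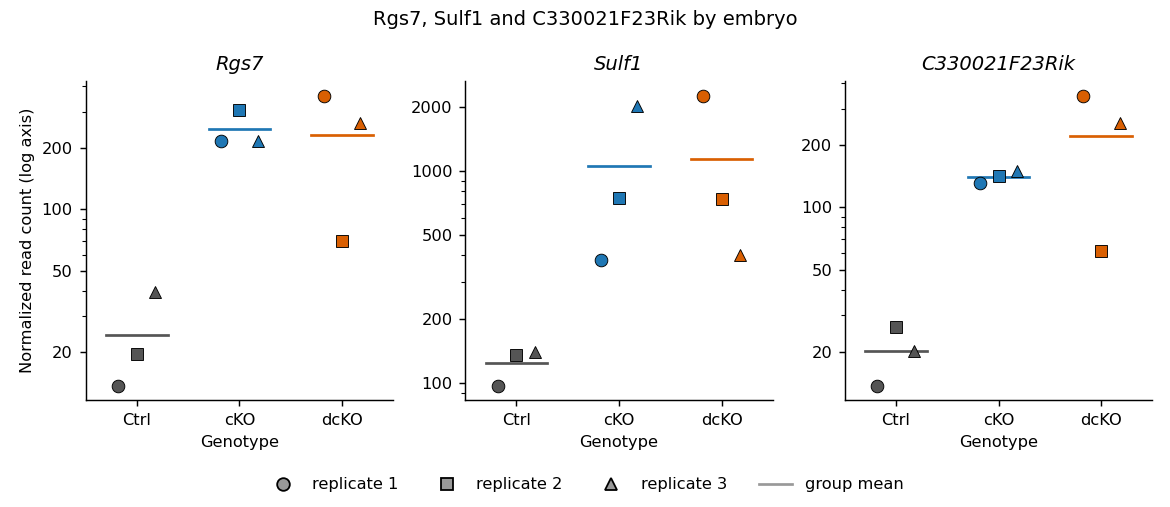
Normalized read counts (log axis) of Rgs7, Sulf1 and C330021F23Rik in each embryo by genotype, with circles, squares and triangles for replicates 1, 2 and 3 and a line at each group mean (n = 3 embryos). All 6 mutant embryos lie above the 3 controls for each gene, Sulf1 spreads from 382 to 2018 within cKO, and dcKO replicate 2 is the lowest mutant embryo for Rgs7 (70.3) and C330021F23Rik (61.7).

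Full separation from controls was common in these data, so it says little by itself. Every cKO embryo was above every control for 29.2% of tested genes and below for 28.0%, and every dcKO embryo was above for 15.6% and below for 11.2%. All 3 genes were in the class above in both mutants, the contrasts on which they were chosen. Any pair of a mutant and a control must therefore give the same order for them. Some mutant and control embryos share the number in their sample code, whose meaning the labels do not state. The sizes within those pairs are given as a description. Rgs7 was 22.2-fold higher in cKO replicate 2 than in Ctrl replicate 1, 11.1-fold higher in cKO replicate 3 than in Ctrl replicate 2 and 6.71-fold higher in dcKO replicate 3 than in Ctrl replicate 3. The same 3 ratios were 7.69, 14.8 and 2.89 for Sulf1 and 10.3, 5.68 and 12.7 for C330021F23Rik. In whole tissue, more cells that express a gene and more RNA per cell cannot be told apart.

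Compared per kilobase of exon, all 3 genes belonged to the weakly expressed part of the control transcriptome. The control level was 4.02 normalized read counts per kilobase for Rgs7, 7.26 for C330021F23Rik and 11.02 for Sulf1, beside a median of 176.2 among tested genes. Only 0.6%, 2.2% and 4.5% of tested genes had a lower control level, respectively. The order in cKO was Sulf1 at 92.9, C330021F23Rik at 50.9 and Rgs7 at 40.8, and in dcKO Sulf1 at 100.4, C330021F23Rik at 80.0 and Rgs7 at 38.5. Per kilobase, the SD among embryos in cKO was 76.1 for Sulf1, 3.47 for C330021F23Rik and 8.51 for Rgs7, and in dcKO it was 87.7, 52.6 and 24.6. The embryos of neighbours in each order overlapped in all 3 genotypes. Rgs7 and C330021F23Rik, each with a control embryo at 12 reads, passed the count filter narrowly.

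The dcKO and cKO embryos differ by the loss of p53 in addition to Cnot3. Both mutants entered the choice of the 3 genes, which favours genes that are alike in them, so this difference too is given as a description, without a test. The log2 difference, dcKO minus cKO, was −0.085 for Rgs7 (95% interval −1.31 to 1.14), 0.11 for Sulf1 (95% interval −1.36 to 1.59) and 0.65 for C330021F23Rik (95% interval −0.53 to 1.83). These intervals are wide and leave room for changes of 2-fold and more in either direction for Rgs7 and Sulf1. With a call defined as an adjusted p under 0.05 and a log2 change beyond 1, over all 13680 genes this comparison called 0.0146% by edgeR in either direction, and by DESeq2 0.0292% higher and 0.351% lower in dcKO. The dcKO and cKO embryos overlapped for all 3 genes. Every dcKO embryo was above every cKO embryo for 2.62% of tested genes and below for 3.63%.

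The targeted genes differed between embryos as well. Cnot3 had 3291, 3000 and 2756 normalized read counts in Ctrl, 420, 484 and 408 in cKO, and 206, 1353 and 534 in dcKO. Trp53 had 6651, 7123 and 6029 in Ctrl, 4676, 4612 and 4693 in cKO, and 423, 3098 and 579 in dcKO. Cnot3 was below all controls in all 6 mutant embryos and Trp53 was lowest in the 3 dcKO embryos, among which dcKO replicate 2 kept the most of both. This is the mutant embryo with the least Rgs7 and C330021F23Rik, and its summed level of cortical neuron markers, 52721, was the highest in dcKO. For Sulf1 it was in the middle. What the remaining Cnot3 contributes to the levels of the 3 genes was not tested.

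Rgs7 and C330021F23Rik followed each other across embryos, and Sulf1 followed a different order. Pearson's r of log2 counts over the 9 embryos was 0.961 for Rgs7 with C330021F23Rik, 0.81 for Rgs7 with Sulf1 and 0.82 for Sulf1 with C330021F23Rik. All 3 coefficients hold the difference between mutants and controls for which the genes were chosen. After subtraction of the genotype means they were 0.904, 0.254 and 0.316. The 9 points share their libraries, and dcKO replicate 2 is far from the others for the first pair, so the coefficients are descriptions. By the same measure, genes with little change in the mutants were closer to Rgs7, such as Ganab (0.987) and Hsd17b4 (0.984). The median SD of log2 counts over tested genes was 0.516 in dcKO and 0.157 in cKO, so many genes varied among the dcKO embryos. How common an r of 0.904 is over all genes was not computed.

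**Figure D2:**
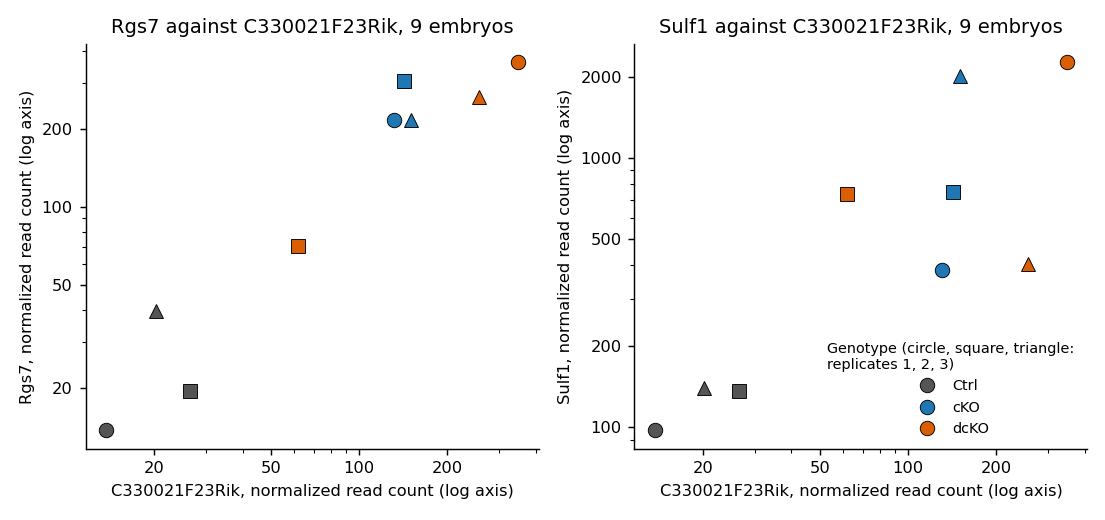
Each point is 1 of 9 embryos, with the normalized read count of C330021F23Rik on the horizontal axis and that of Rgs7 (left) or Sulf1 (right) on the vertical axis, both log axes, coloured by genotype. Rgs7 and C330021F23Rik order the dcKO embryos alike (r of deviations from genotype means 0.904), whereas Sulf1 does not (0.316).

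Genes whose log2 levels were most like each of the 3 over the 9 embryos were sought among all tested genes. For Rgs7 they included Supt20 (r = 0.994), Bbs9, Pdpn and Cc2d2a. For Sulf1 they were Dzip1 (r = 0.980), Wls, Sgcb, Wrn and Bbs12. For C330021F23Rik they were Mettl7a1 (r = 0.991), E030042O20Rik, Dclre1a, Rwdd2b and Creb3l4. With genotype means removed, the genes most like Rgs7 included Ganab, A2m, Hsd17b4 and Lpcat2. Sulf1 was then most like Plxnc1 (r = 0.995), Wls, Cep19, Lmo2 and Dzip1, and C330021F23Rik most like Dclre1a (r = 0.997), Cd63, Ttc30b, Pctp and H2-Q4. Dclre1a appeared in both lists of C330021F23Rik, as did Wls and Dzip1 for Sulf1. Wls, which encodes the carrier that Wnt proteins need for secretion, had means of 1805, 3418 and 3903 normalized read counts in Ctrl, cKO and dcKO. H2-Q4 belongs to a family of near-identical genes whose reads may be split.

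Markers of the cortical hem and the choroid plexus, the structures at the dorsal midline of the telencephalon, were also uneven among mutant embryos. The summed counts of 9 hem markers were 3226, 4156 and 2815 in Ctrl, 3989, 8234 and 10952 in cKO, and 10589, 5296 and 5341 in dcKO. The 6 choroid plexus markers summed to 140, 175 and 166 in Ctrl, 530, 1052 and 2015 in cKO, and 3057, 482 and 515 in dcKO. In cKO, replicate 1 was lowest and replicate 3 highest for Sulf1 and for both sums, and in dcKO replicate 1 was highest for all of them. The other dcKO embryos were in the opposite order, with Sulf1 higher in replicate 2 than in replicate 3 and both sums slightly lower. The cKO hem sums overlapped the controls and the dcKO hem sums did not, while choroid plexus sums were above all controls in both mutants. Of the hem list 8 of 9 genes were tested, and DESeq2 called 4 of them higher in cKO and 3 higher in dcKO, where it called 4.94% and 4.66% of all tested genes higher. edgeR called 0 of the 8 in either mutant, with 5 in cKO and 4 in dcKO at an unadjusted p under 0.05, beside 27.0% and 29.2% of all tested genes. None of the 6 choroid plexus genes passed the count filter. In cKO, 4 of them were above all controls in every embryo and 1 was below, and in dcKO 3 were above and 1 was below. Over the tested genes, the shares were 29.2% above and 28.0% below in cKO, and 15.6% and 11.2% in dcKO. The choroid plexus genes are not among those tested, so these shares are not a like background for the count. Ttr, the defining choroid plexus gene, had 0 reads in all 3 controls, 166, 305 and 921 normalized read counts in cKO and 1597, 96.1 and 173 in dcKO. Rspo3, a hem ligand that activates Wnt signalling and, like Ttr, named after its values were seen, had 403, 635 and 313 in Ctrl, 955, 1802 and 2984 in cKO, and 3413, 1444 and 807 in dcKO. The part of hem and choroid plexus tissue in the Sulf1 counts was not tested.

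**Figure D3:**
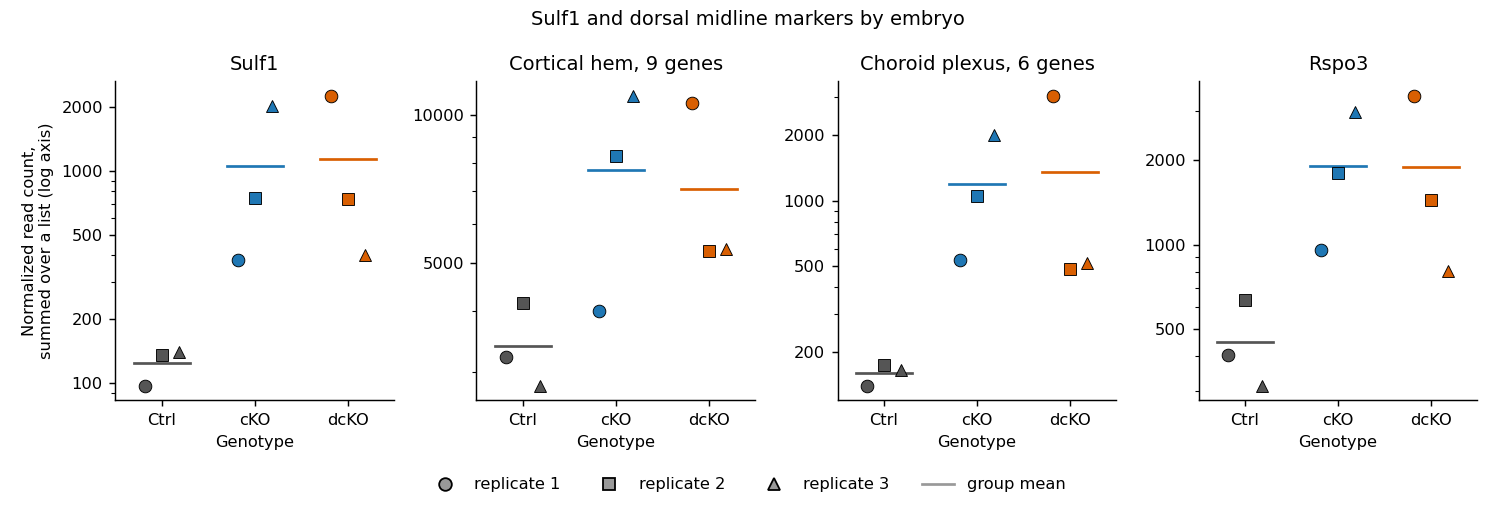
Normalized read counts (log axes) of Sulf1, the sum of 9 cortical hem markers, the sum of 6 choroid plexus markers and Rspo3 in each embryo, with circles, squares and triangles for replicates 1, 2 and 3 and a line at each group mean. In cKO replicate 3 and dcKO replicate 1 all 4 values are the highest of their genotype, with Sulf1 at 2018 and 2262.

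Markers of the labelled tissue, the cortex, were present in all libraries. Radial glia markers summed to 76794 to 92617 in the 9 embryos and cortical neuron markers to 26208 to 52939. Dorsal telencephalon markers summed to 23399 to 39032 in Ctrl, 16789 to 18815 in cKO and 22328 to 29765 in dcKO, so that cKO was below all controls. In cKO, DESeq2 called 2 of the 4 genes lower, where it called 3.87% of all tested genes lower. edgeR called 0 of the 4 there, with 2 at an unadjusted p under 0.05, beside 27.0% of all tested genes. Blood, vessel and meningeal markers were present in every library. Erythroid sums were 215727 to 321550 in Ctrl, 267291 to 406801 in cKO and 138667 to 190140 in dcKO, endothelial sums 5630 to 7652, 5580 to 7932 and 3634 to 4189, and pericyte sums 4405 to 6011, 3371 to 4299 and 1970 to 5345. Erythroid and endothelial sums in dcKO were thus below all controls, while pericyte sums were below all controls in cKO and overlapped them in dcKO. Meningeal fibroblast sums were below all controls in both mutants, at 12688 to 19472 in cKO and 9107 to 14532 in dcKO against 21899 to 24113, microglia sums were 1109 to 1375 in Ctrl, 1116 to 2432 in cKO and 457 to 1004 in dcKO, so that dcKO was again below all controls. Subpallial and interneuron markers were low but above all controls in both mutants, at 34.8 to 42.5 in Ctrl, 63.5 to 127 in cKO and 50.0 to 256 in dcKO, with the highest sum in dcKO replicate 2. The part of these differences in the levels of the 3 genes was not tested. Total counts were 21193798 to 28869816 in Ctrl, 24835674 to 25946075 in cKO and 23275370 to 45073349 in dcKO.

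The tested partners of Rgs7, Gnb5 and Rgs7bp, were not called by either tool, whereas Gpr158, too low for the test, was higher in every mutant embryo. Gnb5, its obligate beta subunit, had 646, 753 and 709 normalized read counts in Ctrl, 1091, 1212 and 1291 in cKO, and 919, 446 and 1486 in dcKO. All cKO embryos were above the controls, and the dcKO embryos overlapped them, with a log2 fold change of 0.77 in cKO and 0.43 in dcKO. The membrane anchor Rgs7bp had a log2 fold change of 0.08 in cKO and 0.90 in dcKO. Gpr158, the receptor that recruits Rgs7 to the plasma membrane, had 10.3, 2.78 and 4.05 normalized read counts in Ctrl, 35.8, 35.5 and 39.1 in cKO, and 46.0, 38.7 and 46.5 in dcKO, so that all 6 mutant embryos were above the controls. Of the other R7 family members, only Rgs9 passed the count filter, at a log2 fold change of −0.28 in cKO and −0.07 in dcKO. Rgs6 had 1.14, 4.18 and 13.2 in Ctrl, 22.5, 10.4 and 8.46 in cKO, and 47.5, 62.4 and 13.9 in dcKO, so that the cKO embryos overlapped the controls and the dcKO embryos were above them, by a narrow margin in replicate 3.

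The called genes among the G proteins of this pathway were Gnao1, Gnai2 and Gnb4. Gnao1, the Go alpha subunit, had 8989, 8062 and 7314 normalized read counts in Ctrl, 4628, 5095 and 3383 in cKO, and 2154, 4278 and 4042 in dcKO. DESeq2 called it lower in dcKO, at a log2 fold change of −1.22 (DESeq2 adjusted p = 0.00113, edgeR 0.0502), and in cKO the log2 fold change was −0.90, short of the limit of 1. Gnai2, a Gi alpha subunit, was called lower in both, at −1.21 in cKO (DESeq2 adjusted p = 0.00295) and −1.12 in dcKO (DESeq2 adjusted p = 0.00535). Gnb4, a beta subunit, was called higher in cKO at 1.22 (DESeq2 adjusted p = 0.0106) and was at 0.91 in dcKO, where it was not called.

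Among the 28 genes of the R7 complex and Gi/o signalling, Rgs7 left out, 21 were tested. DESeq2 called 1 higher and 1 lower in cKO, and 0 higher and 2 lower in dcKO. In the whole table DESeq2 called 4.94% of genes higher and 3.87% lower in cKO, and 4.66% higher and 3.79% lower in dcKO. A single call in 21 is near the background, while 2 lower in 21 is a higher share than over all genes, an excess that was not tested. The median log2 fold change of the 21 genes was −0.08 in cKO and 0.04 in dcKO, beside 0.01 and 0.11 over all tested genes. edgeR called 0 of the 21 in either mutant, with 3 and 4 of them at an unadjusted p under 0.05, beside 27.0% and 29.2% of all tested genes, in a table where it called 0.0146% of genes in cKO and 0.0% in dcKO. Of 17 other RGS genes 12 were tested, and DESeq2 called 0 in cKO and 1 higher in dcKO, with edgeR at 0 in both and 1 and 3 genes at an unadjusted p under 0.05. The call was Rgs17, a regulator of Gi and Gz proteins, with 44.6, 71.0 and 44.5 normalized read counts in Ctrl, 106, 87.7 and 148 in cKO, and 276, 141 and 88.3 in dcKO. The fold change of Rgs17 on the log2 scale was 1.10 in cKO and 1.66 in dcKO (DESeq2 adjusted p = 0.00976 in dcKO).

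The enzymes that act against Sulf1, by adding 6-O-sulfate, and its closest relative were not called. Sulf2, the other extracellular 6-O-sulfatase, had mean levels per kilobase of 505.2, 729.7 and 387.2 normalized read counts in Ctrl, cKO and dcKO. Its lowest embryo, at 257 per kilobase, was above the highest Sulf1 embryo, at 200. Sulf2 had 3080, 3379 and 2438 normalized read counts in Ctrl, 3277, 4397 and 5179 in cKO, and 2317, 1510 and 2991 in dcKO, and both mutants overlapped the controls. The log2 fold change of Sulf2 was 0.53 in cKO and −0.38 in dcKO, and neither was called. The 6-O-sulfotransferase Hs6st1 was at −0.42 in cKO and −0.52 in dcKO, Hs6st2 was at −0.28 and 0.24, and no call was made at the fold limit. Hs6st3 had 0 to 5.72 normalized read counts in the 9 embryos and was not tested.

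Of 57 genes that make, carry and degrade heparan sulfate, Sulf1 left out, 46 were tested, and DESeq2 called 3 higher and 2 lower in cKO, and 2 higher and 5 lower in dcKO. Against the DESeq2 shares of all genes given above, 4.94% and 3.87% in cKO and 4.66% and 3.79% in dcKO, these counts are near the background, apart from the 5 lower in dcKO, whose excess was not tested. edgeR called 0 of the 46 in either mutant, with 13 genes in cKO and 15 in dcKO at an unadjusted p under 0.05, about the share of all tested genes (27.0% and 29.2%). The median log2 fold change was −0.12 in cKO and −0.09 in dcKO. By role, the median in cKO was 0.55 for 12 editing and breakdown genes, −0.30 for 22 synthesis genes and −0.41 for 12 core proteins. In dcKO these medians were 0.34, −0.19 and −0.51. No test of these medians was made.

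Hpse, which encodes heparanase, the enzyme that cuts heparan sulfate chains, had the highest log2 fold change of the 46 tested heparan sulfate genes in each mutant. It had 12, 16 and 13 reads in Ctrl, 85, 66 and 111 in cKO, and 109, 72 and 89 in dcKO, before scaling, with a log2 fold change of 2.48 in cKO (DESeq2 adjusted p = 6.29e-05) and 2.29 in dcKO (DESeq2 adjusted p = 0.000276). The edgeR adjusted p was 0.0509 and 0.0502. Like the 3 genes of interest, Hpse was low in control and its mutant embryos did not overlap the controls. Gusb, the lysosomal beta-glucuronidase, was called higher in cKO at 1.32 and not in dcKO at 0.72, and Arsk, a lysosomal sulfatase, was called higher in dcKO at 1.17 and not in cKO at 0.65. Among synthesis genes, Ndst3, an N-deacetylase and N-sulfotransferase, was called higher in cKO at 1.24 and was at 0.20 in dcKO.

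The heparan sulfate genes that DESeq2 called lower in cKO, dcKO or both were Extl3, B3gat3, Gpc1, Hspg2 and Col18a1. Extl3, a glycosyltransferase that starts the chain, had 3624, 3628 and 3342 normalized read counts in Ctrl, 1667, 1842 and 1690 in cKO, and 1151, 1898 and 1963 in dcKO, with a log2 fold change of −1.03 in cKO and −1.08 in dcKO (DESeq2 adjusted p = 0.000642 and 0.00027). B3gat3, which completes the linker between protein and chain, was called lower in dcKO at −1.36. Gpc1, a glypican held to the membrane by a lipid anchor, had 17089, 13502 and 9988 in Ctrl, 3510, 4040 and 3661 in cKO, and 1321, 3539 and 8279 in dcKO. It was called lower in both, at −1.86 in cKO and −1.63 in dcKO. The basement membrane proteoglycans Hspg2 (perlecan) and Col18a1 were called lower in dcKO at −1.76 and −1.36. Endothelial and meningeal sums, given above, were also below all controls in dcKO, while pericyte sums overlapped them, and their part in the values of Hspg2 and Col18a1 was not tested. The difference between dcKO and cKO was called for 0 of the 46 heparan sulfate genes, 0 of the 21 R7 and Gi/o genes and 0 of the 12 other RGS genes by edgeR and by DESeq2, with 2, 0 and 1 of them at an unadjusted p under 0.05 in edgeR, beside 4.42% of all tested genes. Without dcKO replicate 3, edgeR called 5, 2 and 0 of them between dcKO and cKO, where it called 9.01% of all genes. In dcKO against Ctrl it then called 11, 6 and 2, where it called 23.6% of all genes, so these shares too are near the background.

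**Figure D4:**
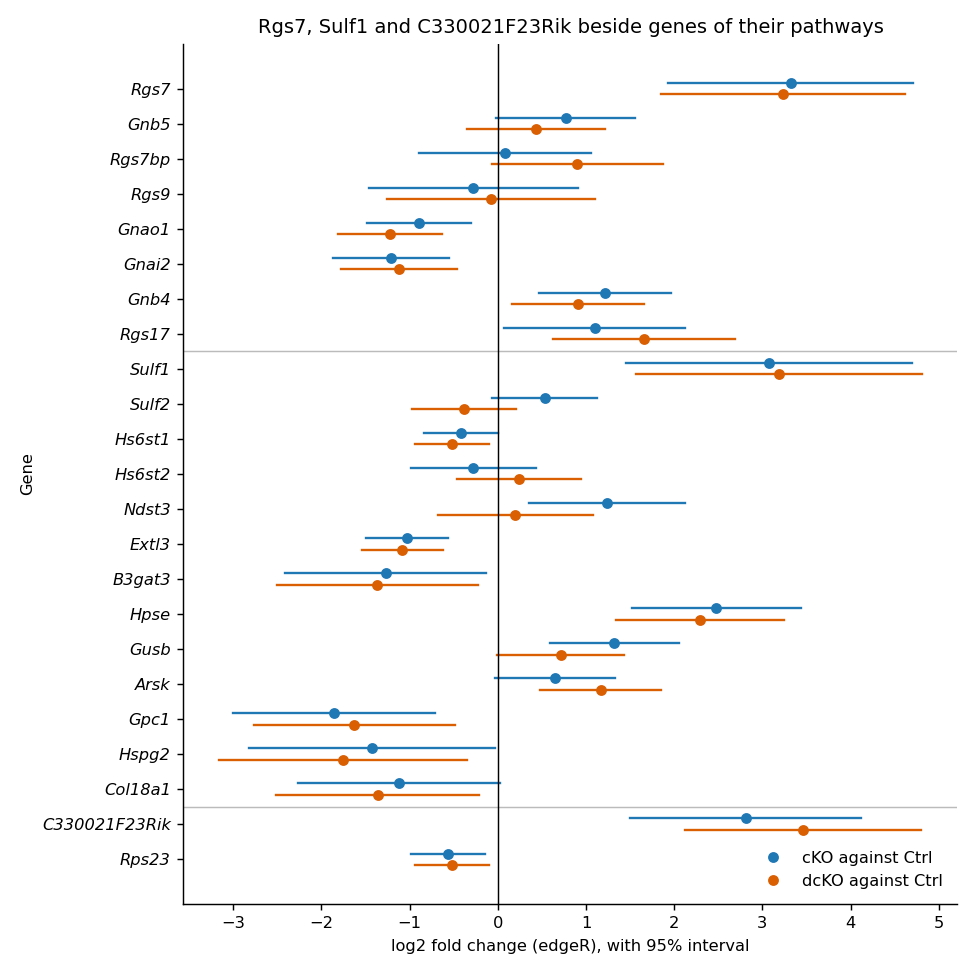
Log2 fold change against Ctrl from edgeR, with its 95% interval, in cKO and dcKO for Rgs7 and genes of its signalling pathway (top), Sulf1 and heparan sulfate genes (middle), and C330021F23Rik with Rps23 (bottom). Rgs7, Sulf1 and C330021F23Rik are at 2.81 to 3.46, Hpse is at 2.48 and 2.29, and Gnao1, Gnai2, Extl3, Gpc1 and Rps23 are below 0 in both mutants. Rgs7, Sulf1 and C330021F23Rik were chosen for a rise in both mutants, so their intervals are not a test.

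Rps23, the parent of C330021F23Rik and a protein of the small ribosomal subunit, was abundant and lower in the mutants. It had 23281, 26011 and 25014 normalized read counts in Ctrl, 17602, 15153 and 17638 in cKO, and 14046, 21187 and 16565 in dcKO. All 6 mutant embryos were below the controls, with a log2 fold change of −0.56 in cKO and −0.52 in dcKO, short of the fold limit. The direction was thus opposite to that of C330021F23Rik. The annotated pseudogene Rps23-ps2, which overlaps an exon of C330021F23Rik on the other strand at chr8:3583799-3584230, had at most 1.01 normalized read counts in any embryo.

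In GRCm38, Rgs7 occupies chr1:175059087-175492500 on the minus strand, Sulf1 chr1:12692277-12861192 on the plus strand and C330021F23Rik chr8:3567990-3584939 on the plus strand. Of the 2 nearest annotated genes on each side and the overlapping genes, 7 had enough reads for the test, and 0 were called in any of the 3 comparisons by edgeR or DESeq2. With the low shares called over all genes, given above, 0 of 7 is near the background. At an unadjusted p under 0.05 in edgeR there was 1 in cKO and 1 in dcKO against Ctrl, Fh1 both times, and 0 in dcKO against cKO. Beside Rgs7, Fh1 (fumarate hydratase) had a log2 fold change of 0.54 in cKO and 0.39 in dcKO, and Fmn2 (an actin nucleator) had 0.23 and 0.43. Gm36307 and the overlapping 5730408A14Rik had no reads. Slco5a1, whose 3′ end lies 5357 bases beyond the end of the Sulf1 locus on the other strand, was at −0.41 and 0.19. Gm17644, Gm29663 and Gm37162 near Sulf1 had no reads.

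C330021F23Rik lies in a crowded stretch. Camsap3, which begins 2354 bases downstream on the same strand and encodes a microtubule minus-end binder, had 816, 619 and 504 normalized read counts in Ctrl, 680, 771 and 569 in cKO, and 457, 177 and 1489 in dcKO. Camsap3 was at a log2 fold change of 0.06 in cKO and 0.13 in dcKO. Pnpla6 upstream was at 0.58 and 0.45, Mcoln1 at −0.006 and −0.035, and Xab2 at 0.06 and −0.13. In dcKO, Camsap3, Pnpla6, Mcoln1 and Xab2 were all highest in replicate 3 and lowest in replicate 2, and C330021F23Rik was also lowest in replicate 2 but highest in replicate 1. Without dcKO replicate 3, edgeR called 2 of the 7 neighbours, Camsap3 and Xab2, both lower in dcKO than in Ctrl, in a fit that called 23.6% of all genes.

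**Figure D5:**
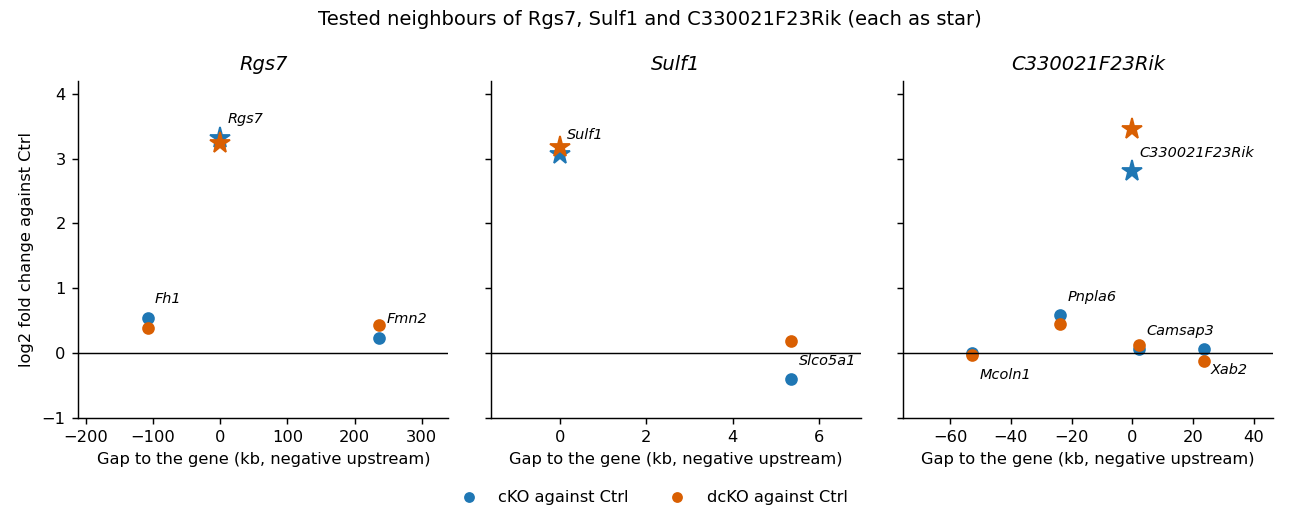
Log2 fold change against Ctrl of each gene (star) and its tested neighbours (dots) in cKO and dcKO, by the gap in kilobases between the annotated gene bodies, with upstream negative. The 7 tested neighbours lie between −0.41 and 0.58, while the 3 genes lie between 2.81 and 3.46.

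The 3 transcripts had little in common in sequence. The GC content of the longest annotated transcript was 36.7% in Rgs7, lower than in 99.0% of tested genes, 46.7% in Sulf1 and 52.1% in C330021F23Rik, beside a median of 49.4%. The values that follow are of the isoform with the longest coding sequence, which can be another transcript. The share of G or C at the last base of codons was 48.6%, 60.5% and 62.4%, beside a median of 60.4%. Coding lengths were 1431, 2610 and 423 bases, and the untranslated stretches at the 3′ end were 713, 2350 and 522 bases, beside a median of 1038 bases. The Pumilio motif TGTANATA, a known entry point for the CCR4-NOT complex and present at the 3′ end of 26.2% of 11878 genes, was in none of the 3. The AU-rich motif TATTTAT, present in 29.4%, occurred once in Sulf1 and in neither of the others. A motif missing from the annotated isoform says nothing of the factor that binds it.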

How the data were processed

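Poly(A) RNA of 9 cortices was sequenced from stranded libraries. Per the submitters' processing notes and the study's methods, reads were checked with FastQC, trimmed with Cutadapt, aligned to mm39 with STAR and assigned to genes with featureCounts. The authors deposited raw counts per gene, without normalization or filter. Of 57010 identifiers, 52029 matched a symbol in GENCODE M21, and 30138 genes had no read.

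Counts were fitted in R 4.3.3 with edgeR 4.0.16 (TMM, quasi-likelihood test, 1 model of all 9 embryos) for the 13680 genes that exceeded 10 reads in each library. A call needed an adjusted p under 0.05 (Benjamini-Hochberg over all tested genes) and a log2 fold change beyond 1 in size. DESeq2 (the study's tool, run here in version 1.42.0) and limma 3.58.1 were alternatives, with RLE factors, no filter, only the 6 embryos compared, a replicate block, a GC correction and an adjusted p under 0.1. Each embryo was left out in turn, with DESeq2 as an addition after the data were seen. The code was tested on simulated data. Levels are counts divided by TMM-scaled library size. log2 CPM used a prior count of 0.5. Coordinates and transcripts come from GENCODE M21 (GRCm38) and promoters from RefSeq (GRCm38.p6), since the alignment was to mm39. The 3 genes, the pathway and marker lists and the tests were chosen with earlier results of these data known. Named are the 3 genes, Cnot3 and Trp53, list genes called by either tool (at most 5 per list), direct partners, neighbours and the 5 most alike genes. Tables were made in Python 3.11.15 with pandas 2.3.3, NumPy 2.4.6 and SciPy 1.17.1. SLAM-seq and imaging were not analysed here. Some genes that met the rules for naming are not reported here.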

Additional observations from a re-analysis of the deposited data

How the results depend on the processing

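The differences of Rgs7, Sulf1 and C330021F23Rik from Ctrl stayed above 0 under every alternative run. Those runs included RLE factors, TMM factors set on every gene that had a read, DESeq2 and limma voom. They also included no filter, only the 6 embryos compared and the GC correction. The genes were chosen for this rise, and all 6 mutant embryos lay above all controls. The sign could therefore hardly turn, and its stability is no support for the rise. With single embryos left out in edgeR, the cKO values spanned 3.04 to 3.88 (Rgs7), 2.18 to 3.47 (Sulf1) and 2.59 to 3.04 (C330021F23Rik) on the log2 scale, and the dcKO values spanned 2.76 to 3.797, 2.20 to 3.59 and 2.98 to 3.91. Within pairs that share a code number it was 3.97 for Rgs7 in cKO and 1.53 for Sulf1 in dcKO. Deviations from group means of embryos with the same replicate number correlated at 0.042 on average between Ctrl and cKO, −0.39 between Ctrl and dcKO and −0.194 between cKO and dcKO. For embryos with different numbers the averages were −0.022, 0.191 and 0.099. With 3 embryos per group the deviations sum to 0, so these values cannot decide whether the replicate numbers pair the embryos. With a replicate block, 0 genes of the whole table were called in any comparison. For dcKO minus cKO the sign turned for Rgs7 under limma voom (0.39), which also moved Sulf1 to 1.41, and leaving out single embryos in edgeR it spanned −0.559 to 0.349 for Rgs7 and −0.878 to 0.965 for Sulf1. In DESeq2 with embryos left out, an alternative chosen after seeing the data, the Rgs7 value turned above 0 without cKO replicate 2 (0.084) and without dcKO replicate 2 (0.322), within −0.59 to 0.322. The Sulf1 value turned below 0 without cKO replicate 1 (−0.304), cKO replicate 2 (−0.094) and dcKO replicate 1 (−0.90), within −0.90 to 0.993. Neither gene has a settled direction between the mutants. The sign for C330021F23Rik held, at 0.13 to 1.10.

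The list counts, 0 by edgeR, depended on the tool, the threshold and single embryos, and the cause was not tested. For the R7 and Gi/o lists in cKO, 2 genes were called at an adjusted p under 0.1, 2 by DESeq2, 3 by limma voom, 2 with no filter and 3 with only the 6 embryos compared. In dcKO these lists had 2 at an adjusted p under 0.1, 2 by DESeq2, 6 by limma voom and 2 with no filter. The other RGS list had 1 in cKO with only the 6 embryos compared, and in dcKO 1 at an adjusted p under 0.1, 1 by DESeq2 and 2 by limma voom. The heparan sulfate lists in cKO had 5 at an adjusted p under 0.1, 5 by DESeq2, 9 by limma voom, 5 with no filter, 8 with only the 6 embryos compared and 4 with the GC correction, and in dcKO 4, 7, 13 and 4 in the first 4 of these settings and 3 with the GC correction. With embryos left out in edgeR and DESeq2, counts ranged from 0 to 3 (R7 and Gi/o, cKO), 0 to 6 (dcKO) and 0 to 4 (dcKO minus cKO), from 0 to 1 and 0 to 2 (other RGS, cKO and dcKO), from 0 to 8, 0 to 11 and 0 to 5 (heparan sulfate), and from 0 to 2 and 0 to 3 for neighbouring genes in dcKO against Ctrl and against cKO. Each upper end was reached without dcKO replicate 3. Over the whole table, these 5 settings (adjusted p under 0.1, DESeq2, limma voom, no filter, GC correction) called 7.54%, 8.82%, 13.7%, 3.03% and 4.79% of genes in cKO and 7.79%, 8.46%, 26.8%, 2.58% and 1.38% in dcKO, and only the 6 embryos compared called 13.1% in cKO. With embryos left out the highest shares were 11.8% (cKO), 23.9% (dcKO) and 10.5% (dcKO against cKO).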
